A study of Mus musculus with 6 samples.

Results

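The genes described here encode the AP-1 transcription factors and 2 further products of the immediate early response. They were selected by symbol, with earlier results of these data known. They comprise 10 of the 44788 gene symbols of the count table: *Fos*, *Fosb*, *Fosl1*, *Fosl2*, *Jun*, *Junb*, *Jund*, *Atf3*, *Ier2* and *Dusp1*. All 10 were found in the table, and 9 had enough counts to be tested. The exception was *Fosl1*. The measurements are bulk RNA-seq counts from tail tendons of C57BL/6 mice, given in the sample labels as 3 weeks old, with 3 WT and 3 *Mkx*-/- libraries and no treatment named for either group. *Mkx* encodes Mohawk, a homeobox transcription factor of tendon, and the mutants serve as a model of tendon heterotopic ossification, in which bone forms inside the tendon. The study's text states a different age for these mice, names the mutants only as *Mkx*-/- without describing the allele, and does not say how many mice gave each library, so the p-values measure the spread between these libraries.

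AP-1 is a dimer of basic leucine zipper proteins. Jun proteins can pair with each other or with Fos proteins, whereas Fos proteins need a Jun partner to bind DNA, and the identity of the pair changes how strongly target genes are transcribed. *Fos*, *Fosb*, *Jun*, *Junb*, *Atf3*, *Ier2* and *Dusp1* are immediate early genes, which are transcribed within minutes of serum, growth factor, mechanical or stress signals without new protein synthesis, and their transcripts are short-lived. *Jund* and *Fosl2* are usually expressed more steadily. In skeletal tissues AP-1 proteins are known to act in osteoblasts, chondrocytes and osteoclasts. Their transcripts also rise quickly when a tissue is dissected, so that the state of these genes at the time of lysis is what a tissue library records.

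Since immediate early genes are induced through their promoters, the promoter sequences of *Fos*, *Fosb* and *Dusp1*, the genes that passed the call rule described later, and of *Jun*, which passed its p threshold alone, are printed. RefSeq promoter entries were matched for 8 of the 10 members, and not for *Fosl1* and *Ier2*. Each sequence runs 5′ to 3′ on the gene's own strand and ends just before the RefSeq start, from which positions are counted. Every matched entry was found once in mm9, and the coordinates are those of mm9. The capitals mark the letters TGACG on either strand, which are the core of the cAMP response element bound by CREB and ATF proteins, the whole palindrome TGACGTCA, which contains that core on both strands, and TATAAA, the TATA box. The *Dusp1* sequence leaves out the last 47 of its 250 bases, which lie inside the annotated gene in mm9, and so ends 47 bases short of the RefSeq start.
Fos, chr12:86814590-86814839, plus strand: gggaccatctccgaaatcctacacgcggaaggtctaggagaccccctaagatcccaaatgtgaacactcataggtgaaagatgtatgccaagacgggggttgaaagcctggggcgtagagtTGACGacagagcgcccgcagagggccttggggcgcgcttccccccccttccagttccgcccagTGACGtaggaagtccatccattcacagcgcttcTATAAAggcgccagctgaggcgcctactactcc
Fosb, chr7:19895395-19895644, minus strand: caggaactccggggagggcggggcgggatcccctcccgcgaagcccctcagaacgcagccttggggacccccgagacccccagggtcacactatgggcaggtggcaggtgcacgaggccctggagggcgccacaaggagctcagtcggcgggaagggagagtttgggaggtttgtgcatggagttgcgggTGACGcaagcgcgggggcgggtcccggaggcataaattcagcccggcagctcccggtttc
Dusp1, chr17:26645465-26645667, minus strand: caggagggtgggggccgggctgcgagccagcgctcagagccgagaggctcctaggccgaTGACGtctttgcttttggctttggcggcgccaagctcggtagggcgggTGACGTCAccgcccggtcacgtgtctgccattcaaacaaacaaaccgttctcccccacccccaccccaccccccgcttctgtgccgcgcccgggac
Jun, chr4:94718914-94719163, minus strand: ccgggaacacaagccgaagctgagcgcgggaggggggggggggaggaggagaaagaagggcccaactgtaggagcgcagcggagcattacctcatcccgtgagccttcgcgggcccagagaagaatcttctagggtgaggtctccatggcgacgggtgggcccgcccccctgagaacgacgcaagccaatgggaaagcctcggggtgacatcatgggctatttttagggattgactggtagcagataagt

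The core TGACG was found in 5 of the 8 promoters, those of *Fos*, *Fosb*, *Junb*, *Dusp1* and *Atf3*, and in 17.8% of the 32851 RefSeq promoter windows of 250 bases. In *Fos* it began 129 and 66 bases before the start, with a TATA box at 33 bases, and in *Fosb* it began 60 bases before the start. The match in *Atf3*, 7 bases before the RefSeq start, lies in the 7 bases of its window that are inside the annotated gene in mm9. *Dusp1* was the single member with the whole palindrome, 143 bases before the RefSeq start, and 1.55% of all windows hold it. The AP-1 site TGACTCA was in 0 of the 8 windows and in 4.46% of all windows, and the CArG box, the site of serum response factor, in 0 of the 8 and 1.47% of all. The *Jun* window held none of these exact letters. A match describes the sequence and does not show a bound site. Sites outside these windows and variants of these letters inside them were not searched, so a window without a match can still hold a variant site.

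The libraries held between 10835070 and 14160301 counts. Levels are given as normalized CPM, the counts scaled to a common library size by edgeR's TMM method, which allows for the larger share of counts taken by *Col1a1*, *Col1a2* and *Sparc* in WT libraries (42.0% to 48.5%, against 28.3% to 34.8% in *Mkx*-/- libraries). *Mkx* itself was lower in its mutants, at 45.7 ± 9.68 CPM against 138 ± 4.92 CPM in WT (SD, n = 3 each), with a log2 difference of -1.60 (edgeR adjusted p = 0.00183). All 8 tendon markers checked, such as *Scx*, *Tnmd* and *Fmod*, were measured, with 3 higher and 5 lower in *Mkx*-/- tendons. Their summed level was 382027 to 524514 CPM in WT and 245271 to 340178 CPM in *Mkx*-/- libraries, without overlap. Most of this sum was *Col1a1* and *Col1a2*. The log2 difference was -1.02 for *Col1a2* and -1.14 for *Scx* (edgeR adjusted p = 0.0933 and 0.106). For *Thbs4* it was 1.26 (edgeR adjusted p = 0.0118). The part of these differences in the levels of the members was not tested. WT replicate 3 had 856 counts on Y-linked genes and 1 on *Xist*, whereas the other 5 had 0 and at least 1289, so 1 library came from a male. WT replicate 1 stood apart within its group, with a chi-square per degree of freedom on raw counts of 37.6 and 39.9 against WT replicates 2 and 3, which differed from each other by 8.02. Pairs of *Mkx*-/- libraries differed by 22.9 to 26.8. Values of the members without WT replicate 1 or WT replicate 3 are given below where a call or direction changed or the value moved by more than 1.5 times.

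The question was whether loss of *Mkx* changes the AP-1 and immediate early genes of the tendon. In *Mkx*-/- tendons *Fos*, *Fosb* and *Dusp1* were downregulated, and *Jun* fell by a smaller amount, while *Fosl2*, *Jund*, *Atf3*, *Ier2* and *Junb* did not pass the test. A call required both an adjusted p under 0.05 and a change of more than 1 on the log2 scale, as in the Methods of the study, here by edgeR's quasi-likelihood test over 14550 genes. By this rule 3 of the 9 tested members were called, where 3.22% of all tested genes were. All 3 were downregulated, where 1.33% of all genes were, and 0 were upregulated, where 1.89% were. At an adjusted p under 0.05 alone, 4 members passed (5.44% of all genes), all of them lower (2.26%) and 0 higher (3.18%). At an unadjusted p under 0.05, 5 members passed (22.6% of all genes), again all lower (10.1%) and 0 higher (12.5%). DESeq2 also had 3 members past the call rule, all lower. At an adjusted p under 0.05 alone, DESeq2 had 4 members lower and 0 higher. In 5 of the 9 members, the 4 just named as lower and *Junb*, every *Mkx*-/- library lay below every WT library, a pattern seen in 13.6% of all tested genes. The opposite pattern was seen in 0 members and 14.6% of all genes, so that 28.2% of all genes were separated in one direction or the other. The median log2 fold change of the 9 was -0.62, and that of all tested genes was -0.0037. Since the members were chosen with earlier results of these data known, these shares and medians describe the set and do not test it. Since 0.1 is the smallest two-sided p of an exact permutation test with 3 libraries a group, p-values come from the fit across all genes. In a whole tissue, fewer cells that express a gene and less RNA per cell cannot be told apart.

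**Figure D1:**
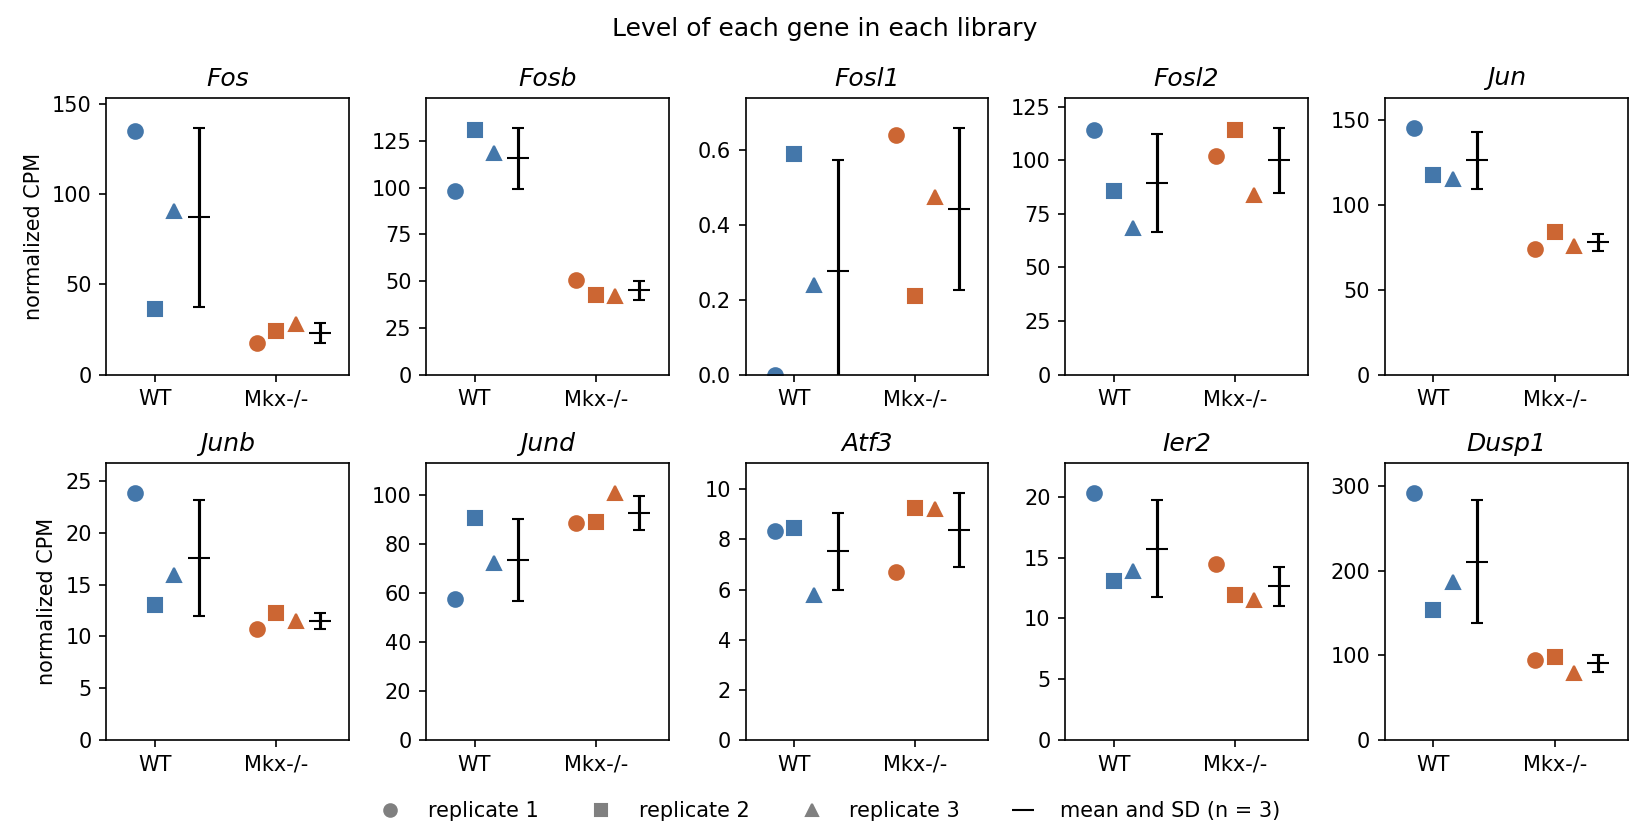
Normalized CPM (vertical axis, from 0) of each of the 10 genes in the 3 WT (blue) and 3 *Mkx*-/- (orange) libraries, with symbols for replicates and a black bar for the mean and SD, cut at 0 for *Fosl1*. *Fos*, *Fosb*, *Jun*, *Junb* and *Dusp1* have all orange points below all blue points, and the WT points of *Fos* spread from 36.1 to 135 CPM.

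*Fos*, on the plus strand, chromosome 12: 86814840 to 86818223 in mm9, encodes the founding partner of Jun. Its level was 135, 36.1 and 90.4 CPM in WT replicates 1, 2 and 3, and 17.3, 24.0 and 28.2 CPM in the *Mkx*-/- replicates. The groups did not overlap, but WT replicate 2 was closer to the *Mkx*-/- libraries than to WT replicate 1. The means were 87.2 ± 49.5 and 23.2 ± 5.50 CPM (SD, n = 3 each), for a log2 fold change of -1.91 (95% confidence interval -2.88 to -0.95, edgeR adjusted p = 0.0404). This was the largest fold change of the members, with the adjusted p nearest to the threshold among the 3 calls. Its adjusted p lay above the threshold in 4 of the 6 fits with a library removed (0.0917 to 0.111, without WT replicate 3 or any of the *Mkx*-/- replicates), and the log2 fold change was -1.45 without WT replicate 1 and -2.30 without WT replicate 2.

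*Fosb*, on the minus strand, chromosome 7: 19888070 to 19895394, encodes a Fos protein with a long and a shorter splice form, which gene counts do not separate. Its level was 98.2, 131 and 118 CPM in WT replicates 1, 2 and 3, and 50.7, 42.4 and 42.1 CPM in the *Mkx*-/- replicates. The groups were well apart, and the highest WT value was in replicate 2, the library with the lowest *Fos* of its group. The mean fell from 116 ± 16.3 to 45.0 ± 4.86 CPM (SD, n = 3 each), for a log2 fold change of -1.36 (95% confidence interval -1.70 to -1.02, edgeR adjusted p = 0.00250). *Fosb* was the one member past the threshold in all 15 alternative fits run for single genes, with an adjusted p of at most 0.0217. These fits leave out glmTreat, which tests for a change of more than 2-fold and called 0 members. Per kb of exon, *Fosb* over *Fos* was 0.456, 2.27 and 0.822 in WT libraries and 1.83, 1.11 and 0.935 in the mutant libraries, so the *Mkx*-/- ratios lay within the range of the WT ratios.

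*Fosl2*, on the plus strand, chromosome 5: 32438845 to 32460204, encodes Fra-2. It had 114, 85.7 and 68.5 CPM in the WT libraries and 102, 114 and 84.0 CPM in the *Mkx*-/- libraries, and the groups overlapped throughout. Its log2 fold change was 0.16, with a 95% confidence interval of -0.30 to 0.62 that does not reach a 2-fold change in either direction (edgeR adjusted p = 0.689). It was 0.37 without WT replicate 1 and -0.012 without WT replicate 3. *Fosl1*, on the plus strand, chromosome 19: 5447703 to 5455945, encodes Fra-1 and was close to absent, with 0, 6 and 3 reads counted in WT tendons and 7, 3 and 6 in *Mkx*-/- tendons, too few to compare. The annotation places *Ccdc85b* over *Fosl1* on the opposite strand, so some of these few reads could belong to that gene.

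*Jun*, a single-exon gene on the minus strand, chromosome 4: 94715725 to 94718913, encodes c-Jun. Its level was 146, 118 and 115 CPM in the WT libraries and 74.3, 83.8 and 75.9 CPM in the *Mkx*-/- libraries. The spread was small in both groups and they did not overlap. The mean fell from 126 ± 16.8 to 78.0 ± 5.09 CPM (SD, n = 3 each), for a log2 fold change of -0.69 ± 0.13 (standard error, with edgeR adjusted p = 0.0252), which is under the fold change of the call rule. With a library removed, the adjusted p stayed under the threshold once, without WT replicate 1 (0.0253), and otherwise ran from 0.0599 to 0.0952. The annotation has *BC042782* on the opposite strand over *Jun*.

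*Junb*, on the minus strand, chromosome 8: 87500811 to 87502617, encodes a Jun protein that often restrains c-Jun. It had 23.9, 13.1 and 15.9 CPM in the WT libraries and 10.7, 12.2 and 11.5 CPM in the *Mkx*-/- libraries. WT replicate 2 lay just above the highest *Mkx*-/- value. Its log2 fold change was -0.62 (95% confidence interval -1.12 to -0.12), and it did not pass the test after adjustment (edgeR adjusted p = 0.140, 0.0821 to 0.377 over the alternatives). Without WT replicate 1 it was -0.34. *Jund*, on the plus strand, chromosome 8: 73221638 to 73224515, with *Gm11175* on the opposite strand, is the steadily expressed Jun gene. It had 57.3, 90.4 and 72.2 CPM in the WT libraries and 88.4, 88.8 and 101 CPM in the *Mkx*-/- libraries. The means, 73.3 ± 16.6 and 92.6 ± 6.98 CPM (SD, n = 3 each), differed by a log2 fold change of 0.34 (95% confidence interval -0.05 to 0.73, edgeR adjusted p = 0.290), and WT replicate 2 exceeded 2 of the *Mkx*-/- libraries. The log2 fold change was 0.19 without WT replicate 1. *Jund* passed the threshold in 1 of the 15 alternatives, scaling by library size only (adjusted p = 0.0486), a scaling that also raised the median of all genes by 0.25.

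**Figure D2:**
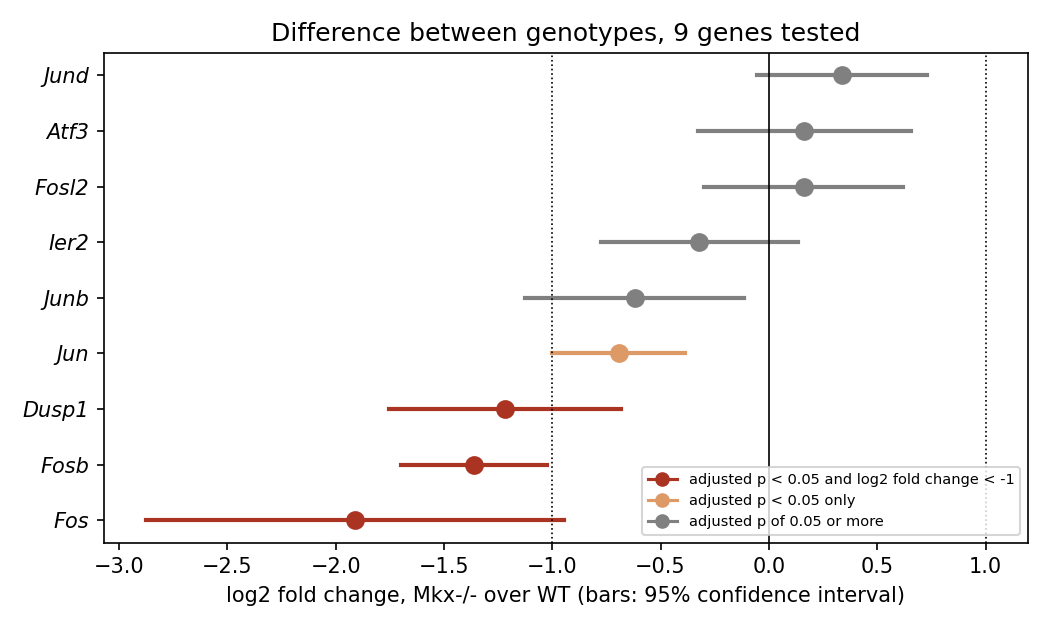
Log2 fold change of *Mkx*-/- over WT (horizontal axis) for the 9 genes tested, with 95% confidence intervals from edgeR and dotted lines at a 2-fold change. *Fos*, *Fosb* and *Dusp1* (red) passed the call rule, *Jun* (orange) passed the p threshold alone, and the intervals of *Jund*, *Atf3*, *Fosl2* and *Ier2* include 0.

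*Atf3*, on the minus strand, chromosome 1: 192994175 to 193007219, encodes a stress-induced factor that pairs with Jun proteins and often represses. Its level was low, with 8.35, 8.44 and 5.77 CPM in the WT libraries and 6.69, 9.27 and 9.20 CPM in the *Mkx*-/- libraries. The groups overlapped, with a log2 fold change of 0.16 (95% confidence interval -0.33 to 0.66, edgeR adjusted p = 0.708), with 0.25 without WT replicate 1 and -0.015 without WT replicate 3. *Ier2*, on the minus strand, chromosome 8: 87185230 to 87186751, encodes a nuclear protein of the immediate early response. It had 20.3, 13.1 and 13.9 CPM in the WT libraries and 14.5, 11.9 and 11.5 CPM in the *Mkx*-/- libraries, so that WT replicate 1 stood above the other 5. Its log2 fold change was -0.32 (95% confidence interval -0.78 to 0.13, edgeR adjusted p = 0.386), and -0.096 without WT replicate 1.

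*Dusp1*, on the minus strand, chromosome 17: 26642535 to 26645464, encodes a phosphatase that switches off the MAP kinases p38, JNK and ERK, and is itself induced by them and by glucocorticoids. It had the highest level per kb of the 10 genes in both groups. Its level was 292, 153 and 187 CPM in WT replicates 1, 2 and 3, and 94.9, 97.8 and 79.2 CPM in the *Mkx*-/- replicates. All WT values lay above all *Mkx*-/- values, with WT replicate 1 far above the rest. The mean fell from 211 ± 72.6 to 90.6 ± 10.01 CPM (SD, n = 3 each), for a log2 fold change of -1.22 (95% confidence interval -1.75 to -0.68, edgeR adjusted p = 0.0248). Without WT replicate 1 the log2 fold change was -0.91 at an adjusted p of 0.0104, short of a 2-fold change. Without WT replicate 3 or any of the *Mkx*-/- replicates the adjusted p was 0.0572 to 0.0917. The plot of the fits with each library left out shows these values for the 4 genes.

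**Figure D3:**
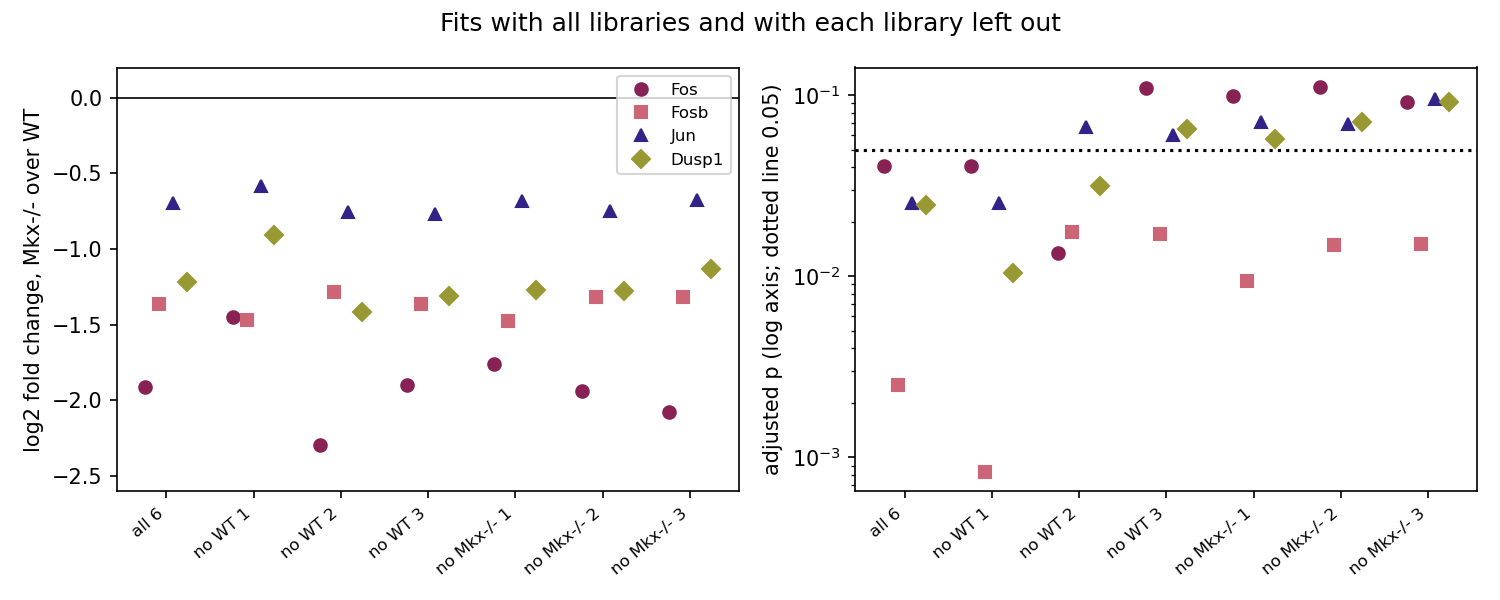
Log2 fold change (left) and adjusted p on a log axis (right) of *Fos*, *Fosb*, *Jun* and *Dusp1* in edgeR's fit with all 6 libraries and with each library left out. All fold changes stay below 0, and *Fosb* is the one gene below the dotted line at 0.05 in every fit.

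The levels of different members can be compared only per length, and were divided by the kb of exon of each gene. In WT tendons the order of mean CPM per kb was *Dusp1* (78.2), *Jun* (39.6), *Fos* (37.1), *Fosb* (30.9), *Jund* (25.5), *Fosl2* (15.3), *Ier2* (10.3), *Junb* (9.75), *Atf3* (3.79) and *Fosl1* (0.162). In WT the values of *Jun*, *Fos*, *Fosb* and *Jund* overlapped from each gene to the next in the order, as did those of *Fosl2*, *Ier2* and *Junb*, so these neighbours are not separated by their spread. In *Mkx*-/- tendons the order was *Dusp1* (33.6), *Jund* (32.2), *Jun* (24.5), *Fosl2* (17.1), *Fosb* (12.0), *Fos* (9.85), *Ier2* (8.30), *Junb* (6.35), *Atf3* (4.23) and *Fosl1* (0.259). Here *Dusp1* and *Jund* overlapped, as did *Fosb* with *Fos* and *Fos* with *Ier2*. *Jund* thus moved from the fifth place to the second and *Fos* from the third to the sixth. With the longest transcript as the length, *Fos* came before *Jun* in WT and the order in *Mkx*-/- tendons was the same.

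Summed over the family, Fos transcripts reached 103, 65.1 and 81.8 CPM per kb in the WT libraries and 38.7, 41.1 and 37.8 CPM per kb in the *Mkx*-/- libraries. The 3 Jun transcripts summed to 78.7, 75.6 and 70.1 CPM per kb in the WT libraries and 59.9, 63.9 and 65.2 CPM per kb in the *Mkx*-/- libraries. For both families every *Mkx*-/- sum lay below every WT sum, a pattern that 13.6% of all tested genes showed singly. The sums hold *Fos*, *Fosb*, *Jun* and *Junb*, already described as separated, and are given without a test. The mean share of *Fosl2* in the Fos family was 18.6% ± 4.10 in WT and 43.5% ± 4.97 in *Mkx*-/- tendons, while that of *Fos* was 42.1% ± 16.6 and 25.2% ± 6.34 (SD, n = 3 each). In the Jun family the mean share of *Jund* was 34.2% ± 8.26 in WT and 51.1% ± 2.71 in *Mkx*-/- tendons, and that of *Jun* 52.8% ± 4.65 and 38.8% ± 2.29 (SD, n = 3 each). Per kb, *Jund* over *Jun* was 0.436, 0.850 and 0.693 in WT libraries and 1.32, 1.17 and 1.47 in the mutant libraries. The ratio of the Jun sum to the Fos sum was 1.55, 1.55 and 1.72 in the *Mkx*-/- libraries, against 0.764, 1.16 and 0.856 in WT replicates 1, 2 and 3. A share within a family rises when other members fall, and *Fosl2* and *Jund* themselves did not pass the test.

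**Figure D4:**
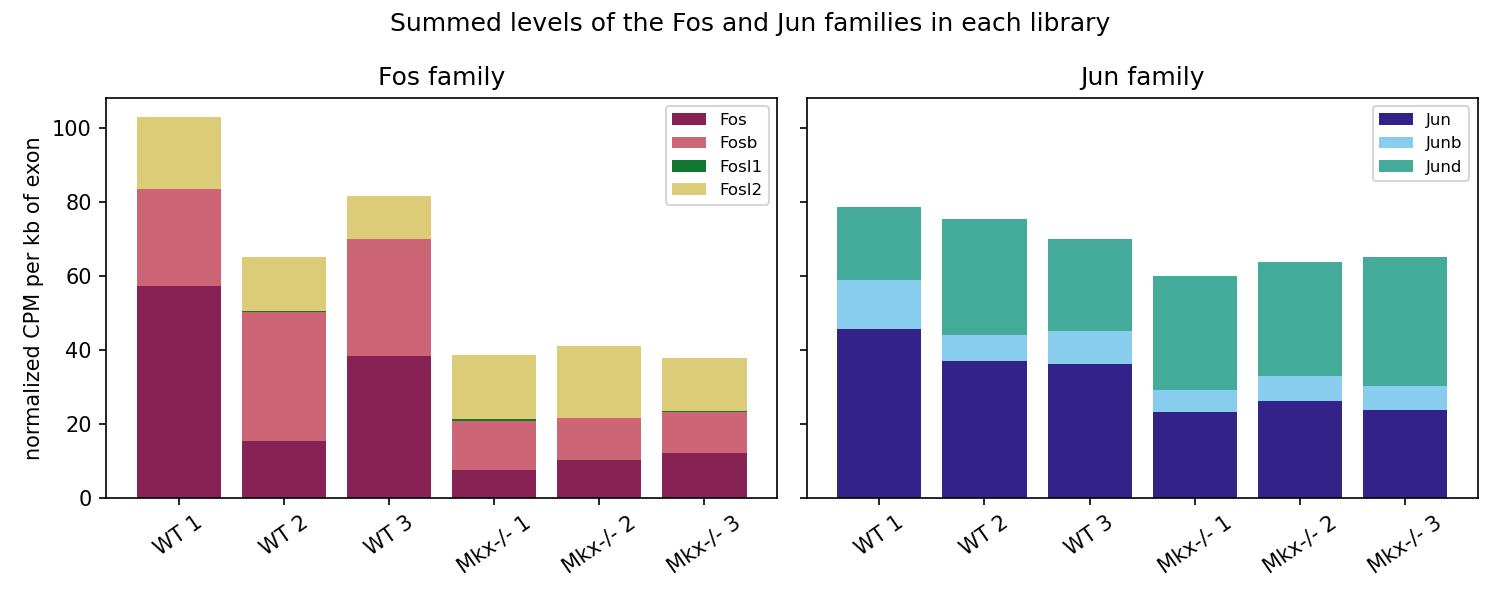
Stacked bars of normalized CPM per kb of exon (vertical axis, from 0) for the Fos family (left) and the Jun family (right) in each of the 6 libraries. The Fos family sums to 65.1 or more in each WT library and to 41.1 or less in each *Mkx*-/- library, and *Fosl2* and *Jund* take larger shares of the *Mkx*-/- bars.

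The members differed in how far they varied within genotypes. *Fos* differed 3.74-fold between the highest and lowest WT libraries and 1.63-fold between the *Mkx*-/- libraries. Of 10286 genes averaging 5 CPM or more, 1.24% had a larger ratio within WT and 11.5% had one within *Mkx*-/-. *Dusp1* and *Junb* differed 1.91-fold and 1.83-fold within WT, and 1.23-fold and 1.14-fold within *Mkx*-/-, against medians over those genes of 1.30-fold in WT and 1.23-fold in *Mkx*-/-. *Fosb* and *Jun* were near the WT median, at 1.33-fold and 1.26-fold, and differed 1.20-fold and 1.13-fold within *Mkx*-/-. WT replicate 1 was the highest of all 6 libraries in 5 of the 9 tested members (*Fos*, *Jun*, *Junb*, *Ier2* and *Dusp1*), and in 24.4% of all tested genes. *Jund* ran the other way, with its lowest value in that library. These genes come from the same libraries, so this is 1 observation about 1 library and not 5.

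Genes that respond to the same signals were taken from lists chosen for this tissue, also with earlier results of these data known. Of 36 other immediate early genes, 33 were tested, with 15 higher and 18 lower in *Mkx*-/- tendons and a list median of the log2 fold change of -0.074. *Nr4a2*, an orphan nuclear receptor gene, was upregulated from 18.1 ± 4.26 to 42.8 ± 12.5 CPM (SD, n = 3 each), for a log2 fold change of 1.24 ± 0.24 (standard error, with edgeR adjusted p = 0.0247, 0.0991 without WT replicate 2 and 0.0552 without *Mkx*-/- replicate 3). At an unadjusted p under 0.05, 4 of these 33 genes were higher and 6 lower, where 12.5% and 10.1% of all tested genes were. In edgeR 0 were downregulated, and 1 was in DESeq2, in edgeR with a filter of 1 count in any library and in edgeR without WT replicate 2. In each case this was *Egr1*, an immediate early zinc finger gene named after its values were seen, with 55.9, 21.1 and 37.6 CPM in WT replicates 1, 2 and 3 and 14.4, 20.0 and 17.9 CPM in the *Mkx*-/- replicates. Its log2 fold change was -1.13 (edgeR adjusted p = 0.0771, DESeq2 adjusted p = 0.00601), and its WT libraries stood in the same order as those of *Fos*. Past an adjusted p of 0.05 alone were also *Zfp36*, which encodes an mRNA decay factor, and *Rhob*, a small GTPase gene, both named after their values were seen. *Zfp36* changed by -0.79 and *Rhob* by 0.72 on the log2 scale (edgeR adjusted p = 0.0454 and 0.0247). Both lost this in 5 of the 6 fits with a library removed, all but the one without WT replicate 1. The tested genes of this list lay in both directions. *Nr4a2* was the only 1 of the 33 called by edgeR with all libraries, where 3.22% of all tested genes were.

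Of 9 tested AP-1 partners of other families and related zipper factors, 6 were higher and 3 lower, and 0 were called by edgeR or DESeq2 or passed an unadjusted p of 0.05. The smallest p-values were those of *Maff*, a small Maf gene, at 0.48 on the log2 scale, and *Atf7*, at -0.66 (edgeR adjusted p = 0.263 and 0.282). Without WT replicate 1 the *Atf7* value was -0.21, and without WT replicate 3 that of *Maff* was 0.30. Of 5 other MAPK phosphatases, 0 were called by either tool, with 1 higher and 1 lower at an unadjusted p under 0.05. These were *Dusp16*, which acts on JNK and p38, and *Dusp7*, which acts on ERK, at 0.59 and -0.49 on the log2 scale (edgeR adjusted p = 0.0698 and 0.0993). Of 19 MAPK kinases and factors that act through serum response factor or CREB, 0 were called by either tool and 2 in each direction had an unadjusted p under 0.05. The smallest p-values were those of *Map2k1*, the ERK kinase MEK1, at 0.37 on the log2 scale, and *Map2k6*, a p38 kinase, at -0.70 (edgeR adjusted p = 0.110 and 0.140). The median log2 fold changes of these lists were 0.012, 0.16 and 0.0035.

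Of 10 tested genes with well-known AP-1 sites, 5 were higher and 5 lower (median log2 fold change 0.0085). *Cd44*, a hyaluronan receptor gene, was the single gene of the 10 called, where 3.22% of all tested genes were. It rose from 21.1 ± 2.97 to 58.7 ± 19.1 CPM (SD, n = 3 each), for a log2 fold change of 1.47 ± 0.23 (standard error, with edgeR adjusted p = 0.0122, and 0.0624 without WT replicate 2). In this list 0 genes were downregulated by edgeR or DESeq2, and at an unadjusted p under 0.05, 3 were higher and 1 lower. The matrix metalloproteinase genes of the list were low, with at most 73 counts in a library.

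**Figure D5:**
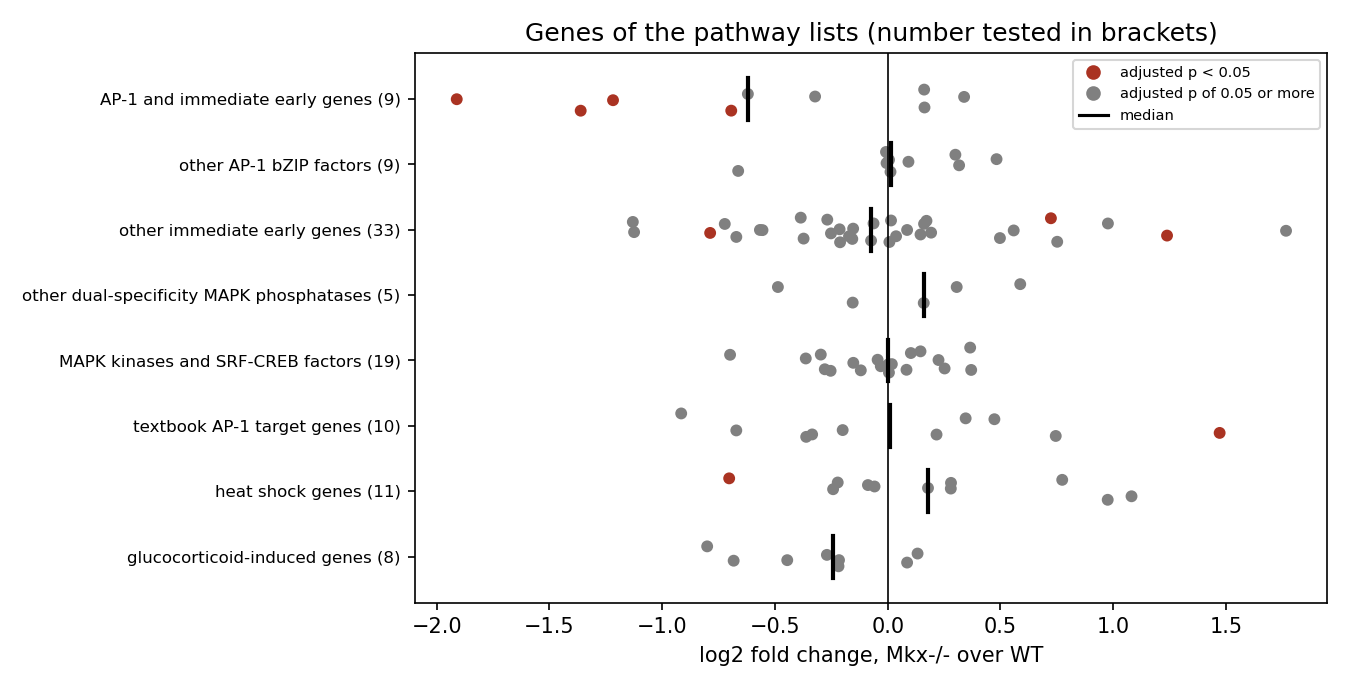
Log2 fold change of *Mkx*-/- over WT (horizontal axis) for each tested gene of the AP-1 and immediate early genes and of 7 related lists, with the number tested in brackets, red for an adjusted p under 0.05 and a black line for the median. The median of the first list lies at -0.62, and those of the other lists lie between -0.24 and 0.18.

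Values that describe the state of the tissue are given beside these results. Heat shock genes, which often rise with immediate early genes during handling, had 11 tested genes, 6 higher and 5 lower, with a summed level of 920 to 1045 CPM in WT and 919 to 938 CPM in *Mkx*-/- libraries. That sum rests mostly on the constitutive genes *Hsp90ab1* and *Hspa8*, whose groups overlapped. In 4 of the 11, *Hspa1a*, *Hspa1b*, *Hspb1* and *Dnajb1*, every *Mkx*-/- library lay above every WT library, as in 14.6% of all tested genes. Their log2 fold changes were 0.77, 0.98, 1.08 and 0.28. All of these but *Hspa1b* were named after their values were seen. None of the 11 was called by edgeR or DESeq2, and 3 were higher and 1 lower at an unadjusted p under 0.05. In edgeR 1 was upregulated without WT replicate 1, without *Mkx*-/- replicate 1, with a filter of 1 count in any library and with scaling by library size only. *Hsph1*, a chaperone gene, fell by 0.70 on the log2 scale, with every *Mkx*-/- library below every WT library, as in 13.6% of all tested genes. *Hspa1b*, which encodes an inducible Hsp70, stood at 0.98 on that scale (edgeR adjusted p = 0.0217 for *Hsph1* and 0.0802 for *Hspa1b*). The *Hsph1* value was 0.0681 to 0.0845 without WT replicate 3, *Mkx*-/- replicate 2 or *Mkx*-/- replicate 3. Of 8 glucocorticoid-induced genes, 6 were lower and 2 higher (median log2 fold change -0.24), and 0 were called by either tool, with 1 lower at an unadjusted p under 0.05. For *Fkbp5* and *Zbtb16* the log2 fold change was -0.80 and -0.68 (edgeR adjusted p = 0.198 and 0.326). Without WT replicate 1 these were -0.50 and -0.23. *Fkbp5* was at 317, 229 and 146 CPM in WT replicates 1, 2 and 3 and at 157, 161 and 79.3 CPM in the *Mkx*-/- replicates, so the groups overlapped. The summed level of this list was highest in WT replicate 1, at 1973 CPM, and 827 to 1432 CPM in the other 5 libraries. The part of handling or of glucocorticoids in the levels of the members was not tested.

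Markers of other cell types also moved with the genotype or with WT replicate 1. The 3 tested erythroid markers had their highest level in WT replicate 1, with a summed level of the list of 180 CPM there, 41.4 and 42.9 CPM in the other WT libraries and 23.7 to 48.4 CPM in *Mkx*-/- libraries, while *Hbb-b1* and *Hbb-b2* were at 0 in all libraries. All 9 macrophage and leukocyte markers were lower in *Mkx*-/- tendons, 8 of them without overlap between the groups, as in 13.6% of all tested genes. Their sums were 412 to 457 CPM in WT and 267 to 323 CPM in *Mkx*-/- libraries. Of 15 skeletal muscle markers 14 were higher, with sums of 104 to 451 CPM in WT and 618 to 3254 CPM in *Mkx*-/- libraries. Of 10 endothelial markers 8 were higher (sums of 70.3 to 86.3 and 120 to 180 CPM), and all 7 Schwann cell markers were higher (8115 to 10730 and 12597 to 23372 CPM). The 5 tested keratinocyte markers were higher too (3.07 to 14.7 and 19.5 to 25.8 CPM), and the single tested adipocyte marker overlapped, with sums of 2.56 to 5.34 CPM over all libraries. Few of these markers passed the call rule. Downregulated was 1 macrophage and leukocyte marker, where 1.33% of all genes were. Upregulated were 3 skeletal muscle, 1 endothelial, 0 Schwann cell and 0 keratinocyte markers, where 1.89% of all genes were. No marker was at 0 in every library outside the erythroid list. The part of these cell types in the levels of the members was not tested.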

How the data were processed

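Counts from 6 tail tendon libraries, 3 WT and 3 *Mkx*-/-, were analysed. The authors sequenced on the Ion Proton system, removed adaptors and low-quality reads, aligned to mm9 with MapSplice, and deposited raw counts, whole reads per gene symbol. The counting program, its annotation and its use of strand are not given in the sources used here. Column names gave the sample of every column, and 0 columns were unused.

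From the deposited counts, fold changes were fitted with edgeR 4.0.16 in R 4.3.3 (TMM, filterByExpr, quasi-likelihood fit on genotype, prior count 0.125, Benjamini-Hochberg adjustment over all 14550 genes that passed the filter). DESeq2 1.42.0, other scalings and count filters, a robust fit, glmTreat, removal of muscle markers, a block for the replicate number and leaving out single libraries were the alternatives. The scripts were tested on simulated data. Exon lengths and coordinates come from the GENCODE annotation of mm9, and promoters from RefSeq (GRCm38.p6). At 10835070 to 14160301 counts per library, genes such as *Fosl1* were too low to test.

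The members and lists were chosen with earlier results of these data known. The text names the 10 members, *Mkx*, called genes of the 7 related lists (at most 5 by p, or the 2 with the smallest p where none was called), and the 5 genes closest in pattern. The other list genes named (*Egr1*, *Egr2*, *Nr4a1*, *Rhob*, *Zfp36*, *Hspa1a*, *Hspb1*, *Dnajb1*, *Hsp90ab1* and *Hspa8*) and genes used to describe the libraries were chosen after their values were seen.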

Additional observations from a re-analysis of the deposited data

How the results depend on the processing

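The direction of *Fos*, *Fosb*, *Jun*, *Junb*, *Jund*, *Ier2* and *Dusp1* was the same in all 15 alternatives run for single genes. *Fosl2* and *Atf3*, neither of them called, changed sign without WT replicate 3 (-0.012 and -0.015), and ran from -0.012 to 0.37 and from -0.015 to 0.28 with a library left out. Of the members, 3 were downregulated with all libraries, and 1 to 3 when a library was left out. The number was 1 without WT replicate 3 and without each *Mkx*-/- replicate, and 0 with glmTreat, which tests for a change of more than 2-fold. At an adjusted p under 0.05 alone, 4 were lower, and 1 to 4 when a library was left out. Scaling by library size only made 1 member higher, *Jund*, left *Jun* above the p threshold (adjusted p = 0.139) and left *Dusp1* at a log2 fold change of -0.99. A robust fit took *Fos* out (adjusted p = 0.0774). The cause of these changes was not tested.

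The replicate numbers of the labels were not taken as pairs, since the deviations of same-numbered WT and *Mkx*-/- libraries correlated at 0.026, -0.21 and 0.30 across genes. With the replicate number as a block, 2 members were lower at an adjusted p under 0.05, where 4 were without it, and *Fos* and *Jun* had adjusted p-values of 0.0926 and 0.0712. Over all genes the block left 195 upregulated and 136 downregulated, against 275 and 193. DESeq2 called 386 and 273. Counts per gene cover counting error only where reads are independent molecules, and *Fosl1* was not measurable at this depth.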

Other observations

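The mean pattern of the 9 tested members over the 6 libraries was compared with that of each other gene with a mean of at least 5 CPM, as the root mean square difference of log2 CPM centred on each gene's mean. Of 10286 genes, the closest were *Fam179b*, *Pex2*, *Wrn*, *Stx17* and *Nbea*, with differences of 0.035 to 0.053 on the log2 scale. In each, every *Mkx*-/- library lay below every WT library, with the highest level in WT replicate 1, and none passed an adjusted p of 0.05 in edgeR, while all 5 had an unadjusted p under 0.05. The genes were picked for their likeness to a mean pattern with these traits, so the separation and the unadjusted p-values follow from the choice. *Stx17*, which encodes a syntaxin that acts in fusion of autophagosomes with lysosomes, was at 37.0, 30.1 and 30.04 CPM in the WT libraries and 21.7, 23.5 and 21.3 CPM in the *Mkx*-/- libraries. The mean pattern is dominated by the members that vary most.

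*Nr4a1* and *Egr2*, immediate early genes named here after their values were seen, were higher in every *Mkx*-/- library than in any WT library. Of the 33 tested genes of their list, 5 showed this pattern, as did 14.6% of all tested genes. The opposite pattern was seen in 7 of the 33 and in 13.6% of all tested genes. *Nr4a1*, an orphan nuclear receptor gene, was at 49.3, 78.2 and 48.6 CPM in the WT libraries and 92.0, 81.2 and 123 CPM in the *Mkx*-/- libraries (log2 fold change 0.75, edgeR adjusted p = 0.0959). *Egr2*, a relative of *Egr1*, was at 9.69, 10.3 and 13.9 CPM in the WT libraries and 14.6, 20.6 and 31.5 CPM in the *Mkx*-/- libraries (log2 fold change 0.98, edgeR adjusted p = 0.0823). Neither passed the threshold, and no test was made of the difference between these genes and *Fos*.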
